A study of Mus musculus with 12 samples.

Results

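The genes described are 10 markers of fibroblasts and pericytes, the connective tissue cells and the vessel-wrapping cells of a tumor, and none of them codes for a collagen. They are Pdgfra, Pdgfrb, Fap, Dcn, Lum, Acta2, Thy1, Postn, S100a4 and Rgs5, and all 10 are among the 21960 genes that the deposited tables list. They were chosen by name as genes widely used to mark these cells, but with earlier results of these data known. RNA from 12 whole mammary tumors of PyMT mice on the C57BL/6 strain was sequenced, 3 tumors in each of 4 groups, 1 library per tumor. The study asked how chemotherapy and blockade of the immune checkpoint PD-1 act together. Levels are in TPM, a measure of transcript abundance per transcript length, so they can be set side by side between genes. Without read counts in the tables the depth stays unknown, and the listed genes add up to between 609418 and 725506 TPM per tumor.

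In these mice the polyoma middle T oncogene is driven in mammary epithelium by a mouse mammary tumor virus promoter, so the tumors start in the epithelium and the connective tissue belongs to the host. IgG1 tumors came from mice given only a control antibody, and anti-PD-1 tumors from mice given only the antibody 4H2 against PD-1. For these groups, treatment began when the first tumor measured 0.6 cm, with 20 mg/kg of antibody and then 10 mg/kg up to day 18. DOX/IgG1 and DOX/anti-PD-1 tumors came from mice given 5 mg/kg doxorubicin weekly for 5 weeks and 10 mg/kg of the control antibody or of 4H2 a day later, starting at 1 cm. Tumors with and without doxorubicin therefore also differ in the size at the start, the first antibody dose and the schedule, and the parts of these cannot be told apart. The labels give 5 weeks of treatment for every group and give no age for the mice.

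Fibroblasts build the fibrous matrix of the mammary gland and of its tumors. In a carcinoma, some of them take on an activated state, with contractile fibers and an altered matrix. Pericytes sit on the outside of small blood vessels and share the PDGF receptor beta with fibroblasts. None of these markers is strictly limited to 1 cell type: myoepithelial cells of the mammary gland make smooth muscle actin (Acta2), mouse T cells and neurons carry Thy1, and macrophages express S100a4.

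Connective tissue transcripts were plentiful in every tumor. The fibrillar collagen genes Col1a1, Col1a2 and Col3a1, the defining matrix genes of fibroblasts, were above 0 in all 12 tumors and together reached 402 to 1537 TPM. Epithelial transcripts were plentiful too, with 1914 to 3619 TPM over Epcam, Krt8, Krt18, Krt19 and Cdh1. The library of DOX/IgG1 replicate 1 stood apart from the others. It listed 8104 genes at 0, the most of any tumor, and its mean correlation with the other tumors of its group was 0.848, the lowest of the 12. Its column header also carries the word test, which no other header does. Of the 10 markers, Pdgfra, Pdgfrb, Fap, Lum and Acta2 had their lowest value of all 12 tumors in it. Results that involve DOX/IgG1 are therefore given with and without this tumor where it decides them. Because low marker values helped to single it out, leaving it out raises the DOX/IgG1 mean of these markers by construction. Calls made without it, of markers or of list genes, are a description and no independent support. In a whole tumor, fewer cells of a type and less RNA per cell cannot be told apart.

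The level of the markers spanned a wide range. By mean TPM over the 12 tumors, periostin (Postn) came first with 480 TPM, followed by Acta2 with 207, decorin (Dcn) with 181, lumican (Lum) with 58.3, Pdgfra with 49.4, Thy1 with 35.0, Rgs5 with 32.9, Fap with 24.3, Pdgfrb with 10.7 and S100a4 with 2.46 TPM. The ranges of every pair of neighbors in this order overlapped. The order differed in DOX/IgG1 tumors, where Dcn came first with a mean of 339 TPM, before Postn with 309 and Acta2 with 306. Among the 9 markers that were never listed at 0, Dcn varied most, with a highest value 8.48 times its lowest, ahead of Acta2 (7.96 times), Lum (6.61 times) and Pdgfra (5.51 times). The first place of Dcn rests on DOX/IgG1 replicate 2, with 619 TPM, since its next highest tumor had 323 TPM. The pericyte genes Rgs5 (2.50 times) and Pdgfrb (2.43 times) varied least.

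**Figure D1:**
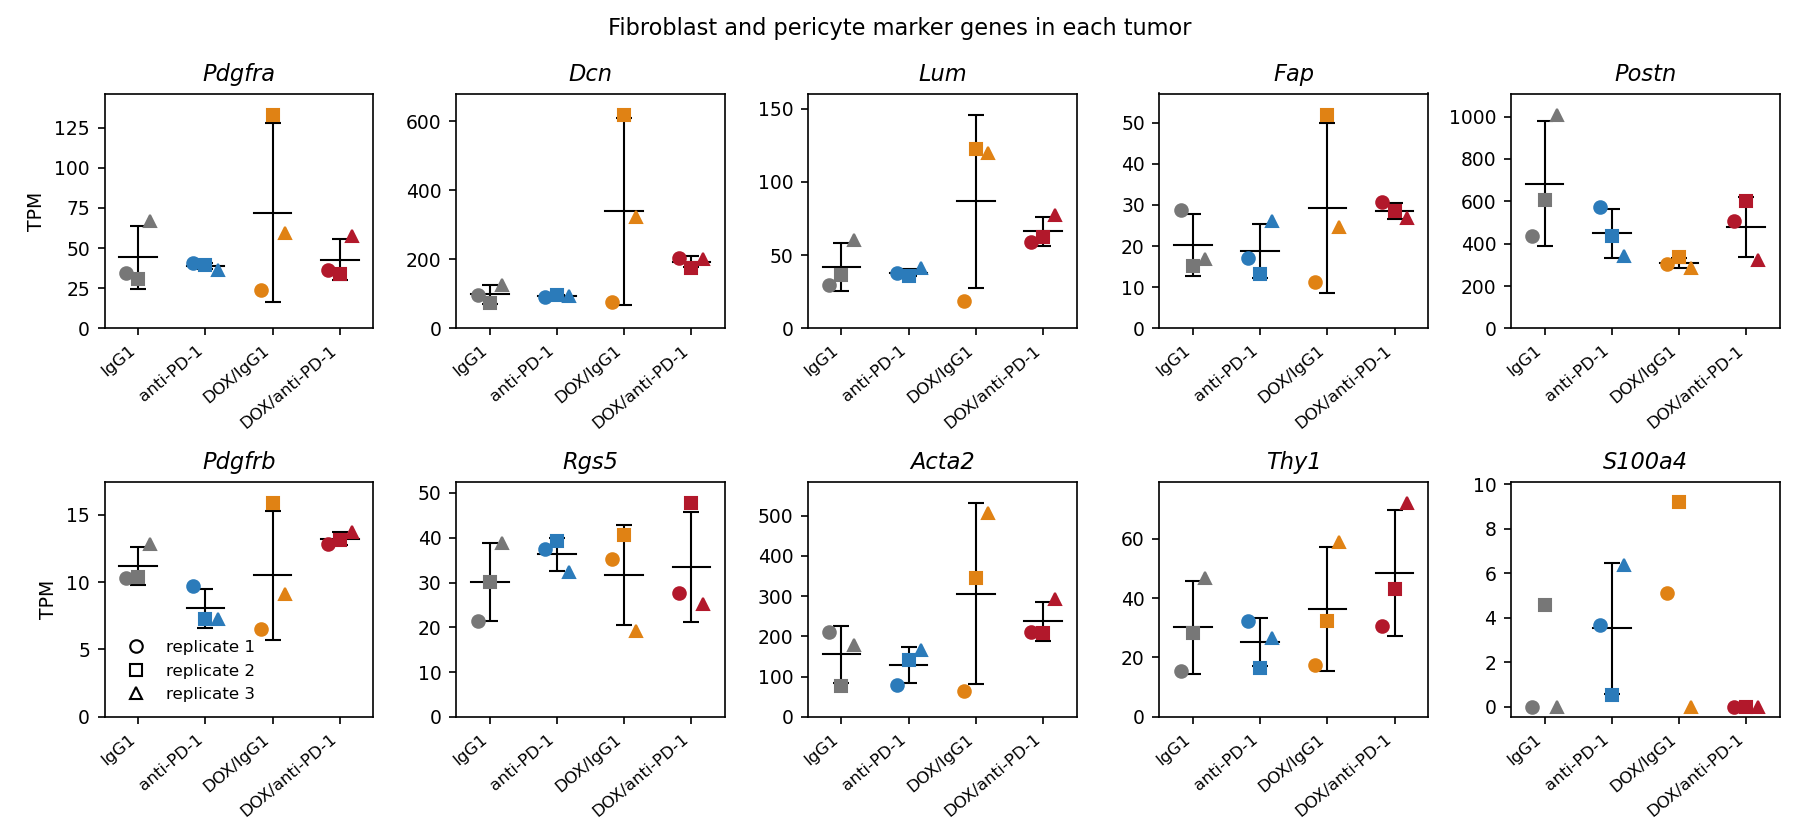
TPM of each marker (vertical axis, starting at 0 apart from S100a4) in the 3 tumors of each group (horizontal axis), with the mean and SD as bars where no tumor was listed at 0 and the shape of a point giving the replicate number. Dcn, Lum and Acta2 are high in DOX/IgG1 replicates 2 and 3, low in DOX/IgG1 replicate 1, and in DOX/anti-PD-1 tumors lie above every anti-PD-1 tumor.

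The receptor of PDGF that marks fibroblasts, Pdgfra (ENSMUSG00000029231, chromosome 5, 75152292 to 75198215, GRCm38), had TPM values of 34.5, 31.0 and 66.9 in IgG1 tumors and 40.6, 39.3 and 36.6 in anti-PD-1 tumors. With doxorubicin it had TPM values of 24.1, 133 and 59.3 in DOX/IgG1 and 36.5, 34.2 and 57.4 in DOX/anti-PD-1 tumors. All 4 groups overlapped, and DOX/IgG1 held both the lowest and the highest tumor. Its doxorubicin difference over both antibodies was a log2 fold change of 0.28 ± 0.33 (SE; limma adjusted p = 0.774). The related receptor of pericytes and fibroblasts, Pdgfrb (ENSMUSG00000024620), had TPM values of 10.3, 10.4 and 12.8 in IgG1, 9.71, 7.24 and 7.23 in anti-PD-1, 6.53, 15.8 and 9.12 in DOX/IgG1 and 12.8, 13.2 and 13.8 in DOX/anti-PD-1 tumors. Every anti-PD-1 tumor lay below every IgG1 tumor and below every DOX/anti-PD-1 tumor, while DOX/IgG1 tumors spread over the whole range. Of these receptors, Pdgfrb parted DOX/anti-PD-1 tumors from those given anti-PD-1 alone, and Pdgfra did not.

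Decorin and lumican are small leucine-rich proteoglycans that bind collagen fibrils and set their width and spacing. Dcn (ENSMUSG00000019929, chromosome 10, 97479609 to 97518143) had TPM values of 95.4, 72.9 and 127 in IgG1 tumors, a mean of 98.5 ± 27.2 TPM (SD, n = 3). In anti-PD-1 tumors it had TPM values of 90.9, 98.2 and 93.7 (94.2 ± 3.69). With doxorubicin the values were 76.8, 619 and 323 in DOX/IgG1 tumors (339 ± 271) and 205, 175 and 201 in DOX/anti-PD-1 tumors (194 ± 16.0). Thus 5 of the 6 doxorubicin tumors lay above all 6 tumors without it, and DOX/IgG1 replicate 1 lay among the latter. The share of all tested genes with this pattern is not given here. Lum (ENSMUSG00000036446) follows Dcn on chromosome 10 in the same orientation, at 97565128 to 97572703, with 46984 bases between the genes. It had TPM values of 29.4, 36.4 and 60.3 in IgG1, 37.6, 35.9 and 41.0 in anti-PD-1, 18.5, 122 and 120 in DOX/IgG1 and 59.2, 62.4 and 77.3 in DOX/anti-PD-1 tumors. As for Dcn, every DOX/anti-PD-1 tumor was above every anti-PD-1 tumor, and DOX/IgG1 replicate 1 was far below the other tumors of its group.

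The actin of smooth muscle and of contractile fibroblasts, Acta2 (ENSMUSG00000035783, chromosome 19, 34241090 to 34255590), had TPM values of 212, 76.8 and 178 in IgG1 and 78.1, 141 and 166 in anti-PD-1 tumors. In the doxorubicin groups it had TPM values of 63.7, 346 and 507 in DOX/IgG1 and 210, 208 and 293 in DOX/anti-PD-1 tumors. The DOX/anti-PD-1 tumors were again all above the anti-PD-1 tumors, and DOX/IgG1 contained the lowest and the highest tumors of the series. Fap (ENSMUSG00000000392, chromosome 2, 62500943 to 62574075), a cell surface protease of activated fibroblasts, had TPM values of 28.9, 15.1 and 16.9 in IgG1, 17.1, 13.3 and 26.2 in anti-PD-1, 11.3, 51.9 and 24.6 in DOX/IgG1 and 30.7, 28.5 and 26.8 in DOX/anti-PD-1 tumors. Its DOX/anti-PD-1 tumors lay in a narrow band just above the highest anti-PD-1 tumor.

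Periostin, a matrix protein of activated fibroblasts that binds integrins, had a different pattern. Postn (ENSMUSG00000027750, chromosome 3, 54361109 to 54391037) had TPM values of 437, 605 and 1008 in IgG1 tumors (683 ± 293, SD, n = 3) and 305, 336 and 287 in DOX/IgG1 tumors (309 ± 24.6). All 3 DOX/IgG1 tumors, replicate 1 included, lay below all 3 IgG1 tumors. With anti-PD-1 the groups overlapped, at 571, 436 and 341 TPM without doxorubicin and 507, 603 and 322 TPM with it. S100a4 (ENSMUSG00000001020, chromosome 3, 90603771 to 90606045), a small calcium-binding protein of fibroblasts and leukocytes, had listed TPM values of 0, 4.57 and 0 in IgG1 tumors, 3.69, 0.51 and 6.39 in anti-PD-1 tumors, 5.12, 9.18 and 0 in DOX/IgG1 tumors and 0 in all 3 DOX/anti-PD-1 tumors. A listed 0 need not mean absence, because 36 genes with a median above 20 TPM were also listed at 0 in some tumor.

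The promoters on file were searched for the letters TATAAA, the classic TATA box, and for a second pattern, the CArG box. RefSeq entries (GRCm38.p6) were found for 5 of the 10 genes, Rgs5, Postn (with 2 starts), S100a4, Pdgfra and Acta2, and none for Pdgfrb, Fap, Dcn, Lum and Thy1. In the 250 bases before each start, on both strands, TATAAA was found for the second start of Postn, 26 to 21 bases before it, but not for its first, and for S100a4, 31 to 26 bases before the start, and in 12.4% of 32817 promoters (4060). The CArG box was searched only as CCWWWWWWGG, with W for A or T, and variants with other letters were not searched. It was not found for any of the 5 genes, beside 1.47% of 32817 promoters (482). For Acta2, on the minus strand, the entry ran from 34255324 to 34255623, while the annotated gene starts at 34255590. Most of the stretch searched for Acta2 therefore lay inside the annotated gene. The sequences printed here are those with TATAAA. The 80 bases before these starts on the plus strand, with TATAAA in capitals, are printed to show this one feature; a match is a description of the letters only.
Postn, chr3:54361027-54361106: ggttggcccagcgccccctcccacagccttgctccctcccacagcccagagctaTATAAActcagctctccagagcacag
S100a4, chr3:90603690-90603769: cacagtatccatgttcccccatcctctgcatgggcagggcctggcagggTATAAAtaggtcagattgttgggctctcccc

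Thy1 (ENSMUSG00000032011, chromosome 9, 44043384 to 44048579), a surface glycoprotein of fibroblasts, had TPM values of 15.4, 28.1 and 46.7 in IgG1, 32.3, 16.5 and 26.6 in anti-PD-1, 17.5, 32.4 and 58.8 in DOX/IgG1 and 30.4, 42.9 and 71.8 in DOX/anti-PD-1 tumors. The groups overlapped in every comparison, with the highest tumors in the doxorubicin groups. Rgs5 (ENSMUSG00000026678, chromosome 1, 169655501 to 169695813), a regulator of G protein signaling that marks pericytes, had TPM values of 21.3, 30.2 and 38.8 in IgG1, 37.4, 39.3 and 32.3 in anti-PD-1, 35.2, 40.6 and 19.1 in DOX/IgG1 and 27.7, 47.7 and 25.1 in DOX/anti-PD-1 tumors. No pair of groups was parted by Rgs5, and DOX/IgG1 replicate 1 was not low for it.

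The first comparison asks how tumors given doxorubicin and the control antibody differ from those given the control antibody alone. Dcn, Lum, Acta2 and Pdgfra were higher on average and Postn lower. S100a4, listed at 0 in 3 of these 6 tumors, had a log2 fold change of 1.16 ± 0.99 (SE; unadjusted p = 0.270), or 0.48 to 2.15 with 1 tumor left out. A gene was called when its adjusted p was below 0.1 and its absolute log2 fold change above 1. By limma, 0 of the 10 markers were called, beside 0.036% of all tested genes, and 1 marker, Postn, had an unadjusted p below 0.05, beside 1073 of 13874 genes. Values shifted as a whole in the doxorubicin comparisons: the median over all genes tested stood at 0.12 on the log2 scale here, and scaling by the median of ratios brought it to 0.01. The median of the 10 markers was 0.39, and 8 of 10 were above 0, beside 60.6% of all tested genes, or 5 to 8 of 10 with 1 tumor left out. Without DOX/IgG1 replicate 1 the median of the markers was 0.85, beside 0.15 over all tested genes. Postn had a log2 fold change of -1.06 ± 0.31 (SE; limma adjusted p = 0.494), which is -1.18 relative to the median of all genes, and was lower in 3 of 3 tumors. The exact permutation test for Postn gave a two-sided p of 0.1, the lowest value within reach of 3 tumors against 3. Postn was the only marker whose DOX/IgG1 tumors all lay below the IgG1 tumors, 1 of 10 beside 4.64% of all tested genes, and 0 of 10 lay above in every tumor, beside 9.31%.

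For Dcn in this comparison the log2 fold change was 1.37 ± 0.65 (SE; limma adjusted p = 0.666), with an exact permutation p of 0.3. Without DOX/IgG1 replicate 1 it was 2.21 ± 0.35 (SE; adjusted p = 0.0458), past both limits. Over all settings tried, the adjusted p for Dcn here lay between 0.0458 and 0.928. In this smaller fit 1 of 10 markers was called, beside 0.879% of all tested genes (122 of 13874). Lum reached 1.57 (adjusted p = 0.111) and Acta2 1.55 (adjusted p = 0.189) without that tumor, against 0.68 and 0.65 with it. Leaving out the other DOX/IgG1 tumors lowered all 3: without DOX/IgG1 replicate 2, Dcn had 0.71 and Lum 0.24, and without replicate 3 of that group Acta2 had 0.0605. The log2 fold change of Rgs5, 0.04, was below 0 after scaling by the median of ratios, and that of Pdgfrb was -0.16.

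The same question under PD-1 blockade sets DOX/anti-PD-1 tumors against those given anti-PD-1 alone. Of the 9 markers tested, 8 were higher, beside 60% of all tested genes. For Dcn, Lum, Acta2, Fap and Pdgfrb, every DOX/anti-PD-1 tumor lay above every anti-PD-1 tumor, 5 of 9 tested beside 11.1% of all tested genes, and 0 of 9 had every tumor below, beside 3.84%. S100a4 was not tested here because too few tumors reached 1 TPM; it was listed at 0 in every DOX/anti-PD-1 tumor. By limma, 0 of 9 markers were called, beside 0% of all tested genes, while 4 of 9 (Dcn, Lum, Acta2 and Thy1) had an unadjusted p below 0.05, beside 1185 of 13736 genes. The median log2 fold change was 0.66 over the 9 markers and 0.11 over all tested genes, and scaling by the median of ratios brought the latter to -0.01.

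Dcn led with a log2 fold change of 1.03 ± 0.20 (SE; limma adjusted p = 0.429), or 0.92 relative to the median of all genes. Acta2 followed with 0.93 ± 0.31 (SE; adjusted p = 0.504) and Thy1 with 0.88 ± 0.37 (SE; adjusted p = 0.550). Lum had 0.77, Pdgfrb 0.66 and Fap 0.63. For each of the 5 markers whose groups did not overlap, the exact permutation p was 0.1, the smallest possible. Pdgfra (0.10), Postn (0.07) and Rgs5 (-0.17) lay near the median of all genes, and Pdgfra and Postn were below 0 after scaling by the median of ratios.

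Taking both antibodies together sets 6 tumors with doxorubicin against 6 without, with the antibody as a covariate, and uses the same tumors as the 2 comparisons already given. Dcn was the marker with the largest difference, a log2 fold change of 1.20 ± 0.36 (SE; limma adjusted p = 0.235), or 1.08 relative to the median of all tested genes, which was 0.12 and became 0.01 with scaling by the median of ratios. An exact permutation of the doxorubicin labels within each antibody gave p = 0.015 for Dcn, where 0.005 is the smallest possible. Acta2 had 0.79 ± 0.42 (SE; adjusted p = 0.476), Lum 0.73 ± 0.37 (SE; adjusted p = 0.456), Thy1 0.56 and Fap 0.47. Postn stood on the other side with -0.49 ± 0.27 (SE; adjusted p = 0.485), or -0.61 relative to the median of all genes. Rgs5 had -0.06, and S100a4, with its many values of 0, had -0.37 ± 0.72 (SE).

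With all 12 tumors, 0 of the 10 markers were called by limma, beside 0.0204% of all tested genes, and 1 of 10, Dcn, had an unadjusted p below 0.05, beside 1765 of 14735 genes. Without DOX/IgG1 replicate 1, Dcn had a log2 fold change of 1.55 ± 0.25 (SE; adjusted p = 0.0208), Lum 1.13 ± 0.21 (SE; adjusted p = 0.0412) and Acta2 1.20 ± 0.28 (SE; adjusted p = 0.0693). These 3 of 10 markers were then called, beside 1.44% of all tested genes (212 of 14735). The calls thus rest on leaving out that tumor, which was singled out partly by its low values of Lum and Acta2. Over the settings tried the adjusted p lay between 0.0208 and 0.380 for Dcn, 0.0412 and 0.652 for Lum and 0.0693 and 0.681 for Acta2. Postn had -0.43 without it.

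**Figure D2:**
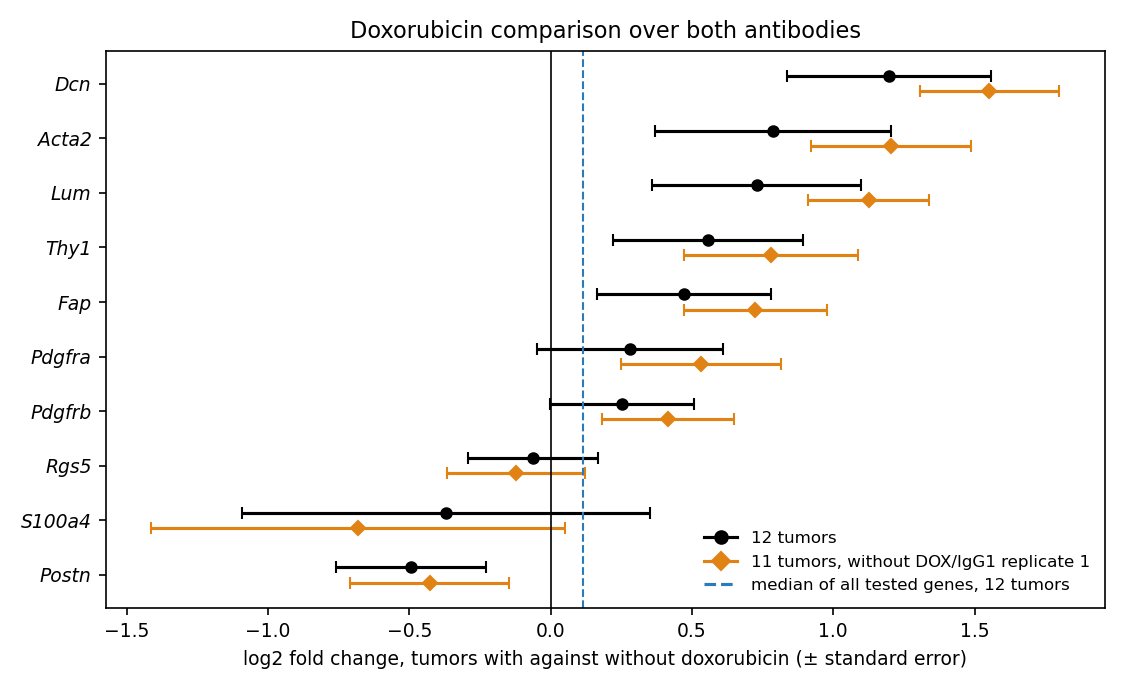
Log2 fold change of each marker (horizontal axis, with the standard error as bars) between 6 tumors with and 6 without doxorubicin, from all 12 tumors (black) and without DOX/IgG1 replicate 1 (orange), with the median of all tested genes as a dashed line at 0.12. Dcn, Acta2 and Lum lie farthest to the right in both fits, and Postn is the leftmost marker with all 12 tumors.

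Next, tumors given anti-PD-1 alone are set against IgG1 tumors. Of the 10 markers, 2 were higher and 8 lower, while 47.2% of all tested genes were higher; without IgG1 replicate 3, 6 of 10 were higher. Here 0 of 10 markers were called by limma, beside 0% of all tested genes, and 0 of 10 had an unadjusted p below 0.05, beside 630 of 13692 genes. Pdgfrb was lower in every anti-PD-1 tumor, with a log2 fold change of -0.43 ± 0.31 (SE; limma adjusted p = 0.996), 1 of 10 markers beside 6.24% of all tested genes. No marker was higher in every tumor, 0 of 10 beside 3.64%. The largest differences were those of S100a4, 1.08 ± 0.79 (SE; adjusted p = 0.996), and Postn, -0.55 ± 0.33 (SE; adjusted p = 0.996), both with overlapping groups. With 1 tumor left out, S100a4 ran from 0.59 to 1.90 and Postn from -0.83 to -0.23. Dcn differed by -0.03 ± 0.25 (SE), with its sign turned by scaling by the median of ratios, and the median was -0.10 over the 10 markers and -0.03 over all tested genes.

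The last pairwise comparison sets DOX/anti-PD-1 tumors against DOX/IgG1 tumors. Of 9 tested markers, 7 were higher, beside 46.3% of all tested genes, but 4 of 9 without DOX/IgG1 replicate 1 and 9 of 9 without DOX/IgG1 replicate 2. Here 0 of 9 tested markers were called by limma, beside 0% of all tested genes, and 0 had an unadjusted p below 0.05, beside 655 of 13946 genes. None of the 9 had every DOX/anti-PD-1 tumor above every DOX/IgG1 tumor, beside 4.27% of all tested genes, and none had every tumor below, beside 5.95%. Postn came closest, with a log2 fold change of 0.58 ± 0.27 (SE; limma adjusted p = 0.988). The spread within the groups went both ways: the SD of Dcn was 16.0 TPM in DOX/anti-PD-1 and 271 TPM in DOX/IgG1 tumors, and that of Postn 143 and 24.6 TPM.

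Whether the doxorubicin difference itself depended on the antibody was tested as an interaction over the 12 tumors. By limma, 0 of 10 markers were called, beside 0.00679% of all tested genes, and 2 of 10 had an unadjusted p below 0.05, beside 694 of 14735 genes. For Postn the interaction was 1.13 on the log2 scale (standard error 0.46, adjusted p = 0.993), from -1.06 with the control antibody to 0.07 with anti-PD-1. S100a4 had -3.06 ± 1.25 (SE; adjusted p = 0.993), from values that are 0 in 6 of 12 tumors. For Dcn it was -0.34 ± 0.74 (SE), so a different response under the 2 antibodies was not detected.

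Ratios within a tumor show how the markers stood to each other. In log2 units, Dcn over Pdgfra was 1.46, 1.23 and 0.93 in IgG1 tumors and 1.16, 1.32 and 1.36 in anti-PD-1 tumors. It was 1.67, 2.22 and 2.45 in DOX/IgG1 tumors and 2.49, 2.36 and 1.81 in DOX/anti-PD-1 tumors. All 6 doxorubicin tumors lay above all 6 others, and this time DOX/IgG1 replicate 1 was among them, at 1.67, although its own levels of Dcn and Pdgfra were low. Group means differed by 0.90 with the control antibody and by 0.94 with anti-PD-1. No p is given, since the ratios are a description.

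Postn over Dcn differed in the other direction. It was 2.20, 3.05 and 2.99 in IgG1 and 2.65, 2.15 and 1.86 in anti-PD-1 tumors, then 1.99, -0.88 and -0.17 in DOX/IgG1 and 1.31, 1.78 and 0.68 in DOX/anti-PD-1 tumors. Within each antibody every doxorubicin tumor was below every tumor without it, and DOX/IgG1 replicates 2 and 3 were the only tumors with more Dcn than Postn. Rgs5 over Pdgfrb was higher in all anti-PD-1 tumors (1.95, 2.44 and 2.16) than in IgG1 tumors (1.05, 1.54 and 1.60) and than in DOX/anti-PD-1 tumors (1.11, 1.86 and 0.87). The ratios Lum over Dcn, Fap over Pdgfra, Acta2 over Pdgfrb and Thy1 over Pdgfrb overlapped in all 4 comparisons of groups, and S100a4 over Pdgfra could not be given where S100a4 was listed at 0.

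**Figure D3:**
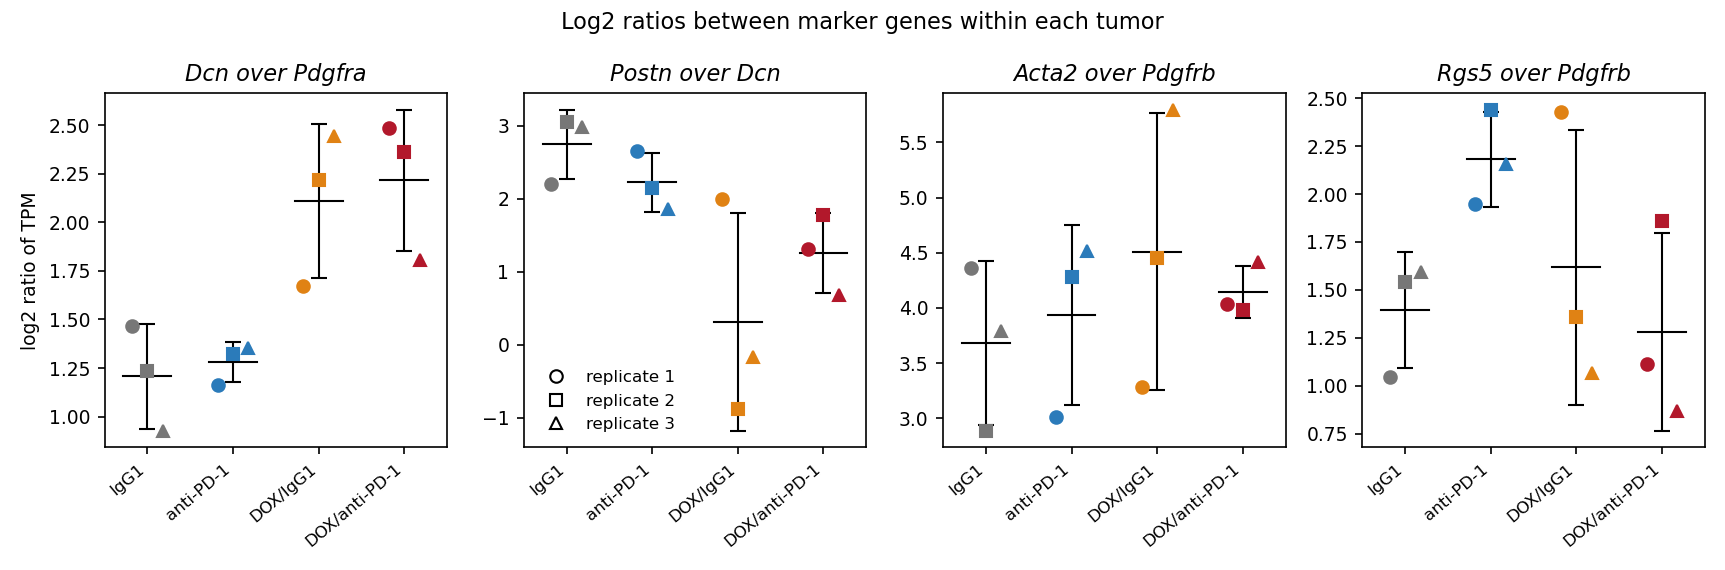
Log2 ratio of TPM for 4 pairs of markers (vertical axis) in the 3 tumors of each group (horizontal axis), with the mean and SD as bars. Dcn over Pdgfra separates the 6 tumors with doxorubicin, from 1.67 upward, from the 6 without it, up to 1.46.

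Across tumors, 10 pairs of genes were compared by correlation of log2(TPM + 1). Dcn and Lum were closely correlated, with r = 0.909 over the 12 tumors (permutation p = 3.0e-05, adjusted p = 3.0e-04) and Spearman's rho of 0.832 (permutation p = 0.0015, adjusted p = 0.015). Without DOX/IgG1 replicates 2 and 3, the tumors farthest from the median of Dcn, r was 0.847. Within the 6 doxorubicin tumors r was 0.925, within the 6 others 0.672, and after each group mean was taken off 0.921 (exact p within groups 0.0756, adjusted p = 0.378). Pdgfra and Dcn had r = 0.820 (permutation p = 0.00216, adjusted p = 0.0108), rho of 0.650 (permutation p = 0.0264, adjusted p = 0.132), and r = 0.735 without DOX/IgG1 replicate 2 and IgG1 replicate 3. Their r was 0.941 within the doxorubicin tumors and 0.909 within the others. With each group mean taken off it was 0.924 (exact p within groups 0.0147, adjusted p = 0.147), and leaving out DOX/IgG1 replicate 2 alone brought the pooled r to 0.612 (adjusted p = 0.151).

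For the remaining 8 pairs the adjusted p of r was at least 0.350, and the lowest adjusted p of rho was 0.152, for Pdgfra and Thy1 (rho of 0.594). The pericyte genes Pdgfrb and Rgs5 had r = 0.092, and Rgs5 and Acta2 had r = -0.397. Postn and Fap, both activation genes, had r = -0.24. Pdgfra and Thy1 had r = 0.489, which became 0.741 (adjusted p = 0.0454) without DOX/IgG1 replicate 2. Thy1 had r = 0.185 with the T cell gene Cd3e, from 0.683 within the 6 doxorubicin tumors and -0.706 within the 6 others, and S100a4 had r = -0.318 with the leukocyte gene Ptprc and 0.06 with Pdgfra. Acta2 had r = -0.268 with Krt14, a keratin of myoepithelial cells, from -0.779 within the doxorubicin tumors and 0.635 within the others, and without DOX/IgG1 replicate 1 the pooled r was 0.122. No test compared the within-set values. Among 14054 genes with a mean of at least 1 TPM, those most like Dcn over the 12 tumors were Matn2 (r = 0.977), Tmsb4x (0.957), Rnf152 (0.957), Apod (0.957) and Efhd1 (0.952). Most like Acta2 were Lect1 (0.941), Adamdec1 (0.935), Cnn1 (0.930), Vcan (0.930) and Stk17b (0.926), and most like Rgs5, at a lower level, Cnot1 (0.861), Exog (0.850), Ddhd2 (0.842), Exosc8 (0.827) and BC055324 (0.821). Cnn1, calponin of smooth muscle, is in the list of pericyte and smooth muscle genes.

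Other genes of the same cells were followed through lists, and with all 12 tumors 0 list genes were called in the comparison over both antibodies by limma. In it 63.3% of all tested genes were higher with doxorubicin, and 1300 of 14735 were higher with an unadjusted p below 0.05. Of 23 tested fibroblast genes outside the 10 markers and the collagens, 19 were higher with doxorubicin, 7 of them with an unadjusted p below 0.05, and 4 were lower, 1 of them with such a p. Their median log2 fold change was 0.40, beside 0.12 over all tested genes. The summed level of this list in TPM was 2178, 1630 and 2935 in IgG1, 1528, 1482 and 1888 in anti-PD-1, 1705, 5316 and 3866 in DOX/IgG1 and 2117, 3204 and 3084 in DOX/anti-PD-1 tumors. Its DOX/anti-PD-1 tumors were all above its anti-PD-1 tumors, as for Dcn, and DOX/IgG1 replicate 1 was again low in its group. The sums of DOX/anti-PD-1 and IgG1 tumors overlapped. In anti-PD-1 against IgG1 tumors, 2 of the 23 genes were higher and 21 lower, with a median of -0.44, and 5 were lower in every tumor, beside 6.24% of all tested genes. Of all tested genes, 47.2% were higher in that comparison. Only 1 of the 21 had an unadjusted limma p below 0.05, and the smallest adjusted p of the list was 0.996. The sums of these groups overlapped, with the highest IgG1 sum in replicate 3, and these counts were not repeated with a tumor left out. The most abundant gene of the list was Sparc, a collagen-binding matrix protein, with a mean of 688 TPM, and Tcf21 was listed at 0 in all 12 tumors. Fmod, fibromodulin and a relative of Lum, had the largest positive log2 fold change, 1.26 ± 0.55 (SE; adjusted p = 0.379), from TPM values of 31.9, 11.8 and 22.5 in IgG1 and 6.18, 14.3 and 16.9 in anti-PD-1 tumors to 8.57, 156 and 109 in DOX/IgG1 and 25.9, 42.2 and 18.2 in DOX/anti-PD-1 tumors. Without DOX/IgG1 replicate 1, 4 of the 23 genes were called, beside 1.44% of all tested genes: Fmod (1.81 ± 0.36, SE; adjusted p = 0.0457), Vim (1.29 ± 0.28, SE; adjusted p = 0.0577), Prelp (1.13 ± 0.28, SE; adjusted p = 0.0883) and Gas1 (1.08 ± 0.25, SE; adjusted p = 0.0663). Aspn, asporin of the proteoglycan family of Lum, was the lowest with -0.57 ± 0.22 (SE; adjusted p = 0.338).

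Pericyte and smooth muscle genes were split. Of 16 tested, 12 were higher with doxorubicin, 5 of them with an unadjusted p below 0.05, and 4 were lower, 1 of them with such a p, with a median of 0.53; the share of higher genes was 63.3% over all tested genes. Tagln, transgelin of smooth muscle, had 1.15 ± 0.41 (SE; adjusted p = 0.292), with its highest tumors in DOX/IgG1 replicate 3 (314 TPM) and DOX/anti-PD-1 replicate 3 (340 TPM). Anpep, the aminopeptidase CD13 and the most abundant gene of the list with a mean of 239 TPM, had -0.75 ± 0.18 (SE; adjusted p = 0.196), and Higd1b was listed at 0 in 9 tumors. The TPM values of Anpep were 262, 245 and 217 in IgG1, 433, 282 and 352 in anti-PD-1, 116, 148 and 170 in DOX/IgG1 and 254, 245 and 144 in DOX/anti-PD-1 tumors, so that within each antibody every doxorubicin tumor was lower. Of all tested genes, 4.64% had every doxorubicin tumor lower with the control antibody and 3.84% with anti-PD-1. Without DOX/IgG1 replicate 1, 3 of the 16 genes were called, beside 1.44% of all tested genes: Tagln (1.42 ± 0.37, SE; adjusted p = 0.0933), Mylk (1.39 ± 0.28, SE; adjusted p = 0.045) and Myh11 (1.31 ± 0.29, SE; adjusted p = 0.0588). Myoepithelial cells also express Mylk, and their part was not tested. In that fit the 4 lower genes were Anpep (-0.68), Abcc9 (-0.51), Kcnj8 (-0.46) and Higd1b (-0.12), and the marker Rgs5 had -0.12. Cspg4 (0.97), Des (0.43), Mcam (0.37) and Notch3 (0.27) were among the 12 higher. In TPM, the list as a whole summed to 790, 525 and 673 in IgG1, 771, 657 and 814 in anti-PD-1, 556, 1010 and 1373 in DOX/IgG1 and 880, 709 and 1029 in DOX/anti-PD-1 tumors.

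Over both antibodies, other genes typical of activated fibroblasts were mostly lower, like Postn (-0.49) and unlike Fap (0.47) and Acta2 (0.79). Of 12 tested, 4 were higher, beside 63.3% of all tested genes, and 8 lower with doxorubicin, 4 of the latter with an unadjusted p below 0.05, and the median was -0.35. Of all 14735 tested genes, 1765 had such a p, and 1300 of these were higher. Tnc, tenascin C, had the lowest value, -1.05 ± 0.41 (SE; adjusted p = 0.341), from 52.1, 15.0 and 18.3 in IgG1 and 33.8, 15.8 and 16.4 in anti-PD-1 tumors to 23.2, 6.48 and 4.09 in DOX/IgG1 and 7.67, 19.6 and 12.0 in DOX/anti-PD-1 tumors. Fibronectin (Fn1), the most abundant of the list with a mean of 434 TPM, had 0.15 with all tumors and -0.06 without DOX/IgG1 replicate 1, and Tpm2 had the highest value, 0.62. Tpm2 peaked in DOX/anti-PD-1 replicate 1 (153 TPM) and anti-PD-1 replicate 1 (139 TPM), where skeletal muscle genes summed to 669 and 395 TPM. IgG1 replicate 3, with a muscle sum of 416 TPM, had 88.9 TPM of Tpm2. A part of muscle in the Tpm2 values was not tested. The summed level of the activation list did not follow its counts of higher and lower genes: in TPM it was 973, 540 and 933 in IgG1, 690, 623 and 674 in anti-PD-1, 1174, 572 and 553 in DOX/IgG1 and 654, 848 and 844 in DOX/anti-PD-1 tumors, with overlap in both doxorubicin comparisons. The counts differed by antibody. In DOX/IgG1 against IgG1 tumors 2 activation genes were higher and 10 lower (median -0.52), beside 60.6% of all tested genes higher. With anti-PD-1, 5 were higher and 7 lower when doxorubicin was given (median -0.26), beside 60%. Postn had -1.06 with the control antibody and 0.07 with anti-PD-1. In anti-PD-1 against IgG1 tumors, 1 of the 12 activation genes was higher and 11 were lower (median -0.26), beside 47.2% of all tested genes higher. Among the 3 fibrillar collagens the highest log2 fold change over both antibodies was 0.08 for Col1a2 and the lowest -0.11 for Col1a1. These values join different directions: 0 of 3 collagens were higher in DOX/IgG1 than in IgG1 tumors (median -0.55, or -0.22 without DOX/IgG1 replicate 1, where Col1a2 had -0.005; 1 with an unadjusted p below 0.05 with all tumors), and with the PD-1 antibody 3 of 3 were higher when doxorubicin was given (median 0.60, 2 with such a p). In anti-PD-1 against IgG1 tumors 0 of 3 were higher, with a median of -0.54. Of all tested genes, 60.6%, 60% and 47.2% were higher in these comparisons, in the order given. In the 2 doxorubicin comparisons, 1073 of 13874 and 1185 of 13736 genes had an unadjusted p below 0.05. The median interaction of the 3 collagens was 1.04, and 2 of them had an unadjusted p below 0.05, beside 694 of 14735 genes. By limma, 0 collagens were called in any of these comparisons. All 3 were above 0 over both antibodies without DOX/IgG1 replicate 1, with a median of 0.16.

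Of the 4 ligands of the PDGF receptors, Pdgfa had the largest difference, a log2 fold change of 1.06 ± 0.23 (SE; adjusted p = 0.167). It had TPM values of 12.4, 20.7 and 19.9 in IgG1, 7.62, 10.8 and 20.2 in anti-PD-1, 31.7, 39.1 and 37.1 in DOX/IgG1 and 32.0, 28.7 and 21.1 in DOX/anti-PD-1 tumors. All 6 doxorubicin tumors were above all 6 others for this ligand, DOX/IgG1 replicate 1 included, with an exact permutation p of 0.005 within antibodies, the smallest possible. The share of all tested genes with this pattern over the 12 tumors is not given here. Every doxorubicin tumor was above for 9.31% of tested genes with the control antibody and for 11.1% with anti-PD-1. Pdgfc, the most abundant ligand with a mean of 64.7 TPM, had -0.33, and its lowest tumor, at 10.3 TPM, was DOX/IgG1 replicate 1; without that tumor it had 0.12. Over the 4 ligands, 2 were higher and 2 lower, with a median of 0.16, and without that tumor 4 were higher, with a median of 0.37. Pdgfa was then called, with 1.105 ± 0.250 (SE; adjusted p = 0.0647).

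**Figure D4:**
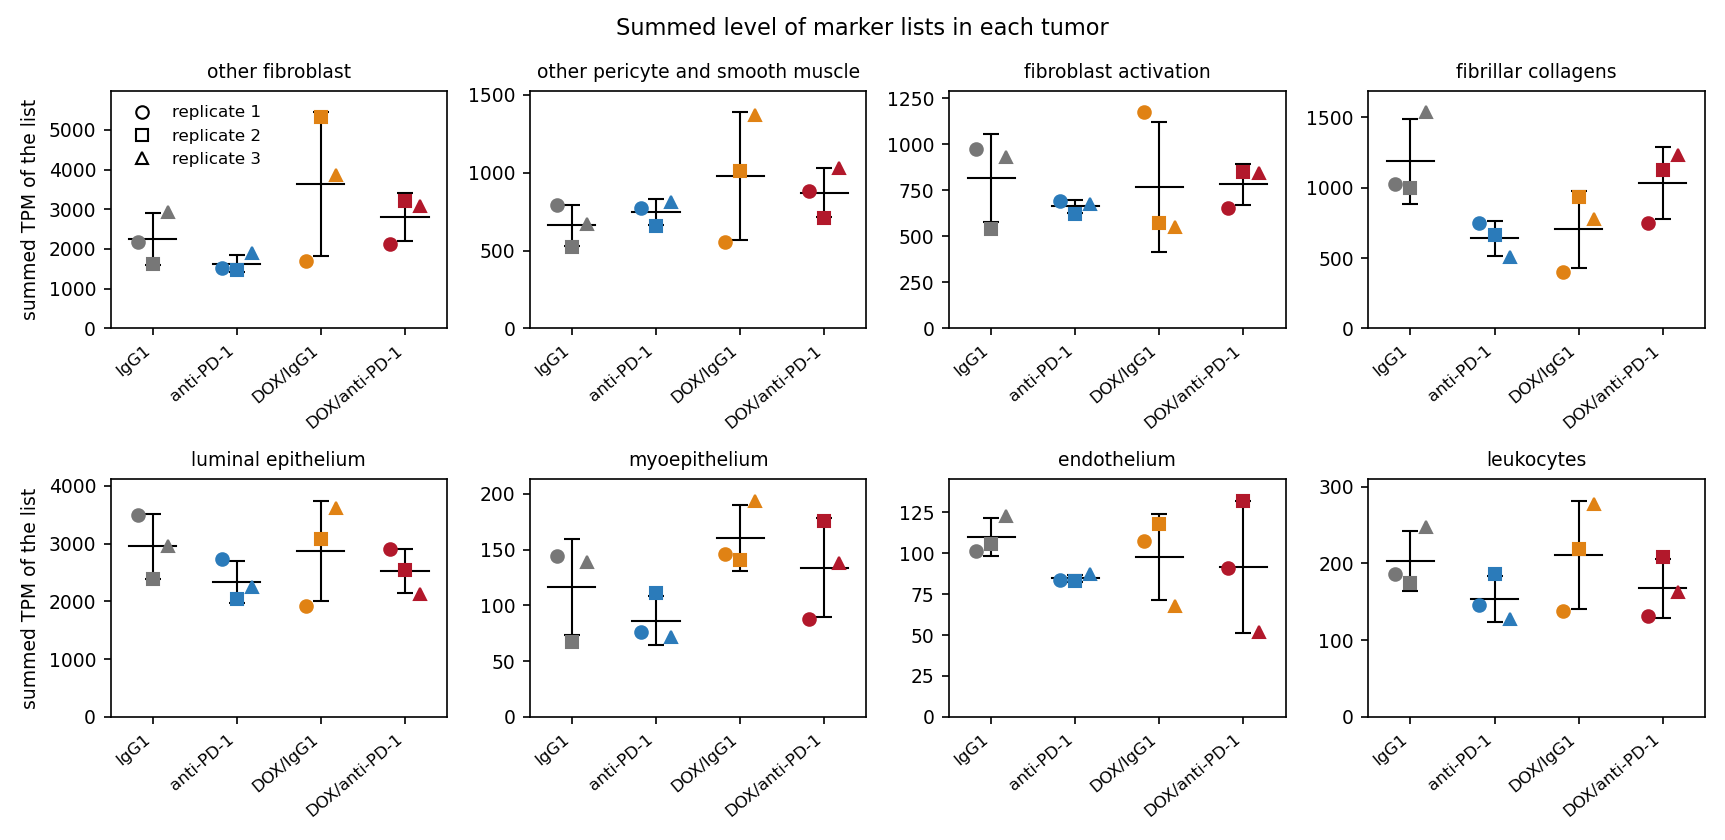
Summed TPM of 8 marker lists (vertical axis, starting at 0) in the 3 tumors of each group (horizontal axis), with the mean and SD as bars. The fibroblast list is highest in DOX/IgG1 replicates 2 and 3, at 5316 and 3866 TPM, and the collagen sums of DOX/IgG1 tumors, 402 to 933 TPM, lie below those of IgG1 tumors.

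Markers of other cell types were read beside these values, because a whole tumor holds them all; their part in the differences of the 10 markers was not tested. The counts of higher genes over both antibodies stand beside 63.3% of all tested genes. Luminal epithelial genes were lower in 4 of 5 (median -0.18), with Epcam, the most abundant, at -0.54 (adjusted p = 0.319) and Krt19 at 0.82. Myoepithelial genes, whose cells also express Acta2, were higher in 5 of 5 (median 0.24), and in 4 of 5 without DOX/IgG1 replicate 1 (median 0.32). With all tumors the values ran from 0.11 for Krt5 to 0.49 for Oxtr, the most abundant. Their sum was 144, 67.0 and 139 in IgG1, 75.7, 112 and 71.6 in anti-PD-1, 146, 141 and 194 in DOX/IgG1 and 87.7, 176 and 138 in DOX/anti-PD-1 tumors, and in DOX/IgG1 replicate 1 most of it came from Krt14 (112 TPM), while Oxtr, like Acta2, had its lowest value of the 12 tumors there (5.64 TPM). Without that tumor Oxtr had 1.09 ± 0.22 (SE; adjusted p = 0.0474) and was called, as was Krt19 with 1.18 ± 0.26 (SE; adjusted p = 0.0577). Endothelial genes were higher in 3 of 5 (median 0.05, Pecam1 most abundant, Kdr 0.29, Cdh5 -0.72), and their sum lay between 51.8 and 132 TPM. Leukocyte genes were higher in 4 of 5 (median 0.18, Ptprc most abundant at -0.06, Adgre1 0.28), with sums of 128 to 278 TPM.

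T cell genes, whose cells also carry Thy1, were higher in 3 of 4 tested (median 1.03, Cd3g 1.73 with adjusted p = 0.206, Cd2 -0.16, Cd3e most abundant). The T cell sum was 21.6, 15.6 and 6.07 in IgG1, 7.99, 17.4 and 6.68 in anti-PD-1, 12.4, 47.0 and 37.7 in DOX/IgG1 and 20.2, 22.6 and 34.1 in DOX/anti-PD-1 tumors, with its DOX/anti-PD-1 tumors all above its anti-PD-1 tumors. With DOX/IgG1 replicate 1 left out, Cd3g had 1.91 ± 0.49 (SE; adjusted p = 0.0915) and was called. Some defining genes, such as Cd3d, were listed at 0 in part of the tumors. Adipocyte genes of the mammary fat pad were higher in 5 of 5 (median 0.97, Adipoq most abundant, Fabp4 1.42 with adjusted p = 0.326, Cidec 0.26). Their sum was 36.1, 163 and 104 in IgG1, 45.1, 38.1 and 69.7 in anti-PD-1, 81.1, 384 and 56.1 in DOX/IgG1 and 476, 101 and 107 in DOX/anti-PD-1 tumors. All DOX/anti-PD-1 tumors were above all anti-PD-1 tumors for this sum too, and in that comparison 5 of 5 adipocyte genes were higher, 4 with an unadjusted p below 0.05, with a median of 1.47. Over all tested genes in that comparison, 60% were higher, and 865 of 13736 were higher with such a p. Skeletal muscle genes were higher in 3 of 5 (median 0.12, Acta1 most abundant, Myh4 0.60, Tnnt3 -1.20), with sums from 0 in DOX/anti-PD-1 replicate 2, where all 5 were listed at 0, to 669 TPM. Leaving out DOX/IgG1 replicate 1 turned the sign over both antibodies for Ptprc (0.16), Pecam1 (-0.045), Cd2 (0.23), Krt18 (0.068), Krt14 (-0.095) and Acta1 (0.076) of these lists.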

How the data were processed

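RNA of 12 PyMT tumors was sequenced as total RNA. Per the labels, the authors aligned reads with STAR to mm10 and quantified genes with RSEM. The deposited tables hold log2(TPM + 1) for 21960 genes with decimal commas, which was reversed to TPM; other scales and unlisted genes cannot be checked from the values. The tables hold no counts, so limma 3.58.1 (R 4.3.3; lmFit, eBayes with trend) was run on log2(TPM + 1) in place of a count model, two-sided, with Benjamini-Hochberg adjustment over all genes that reached 1 TPM in at least 3 tumors of the fit. Calls needed adjusted p below 0.1 and absolute log2 fold change above 1. P-values measure the spread between tumors. Single genes also had exact permutation tests, and correlations 100000 permutations (SciPy 1.17.1). Comparisons share groups: IgG1 tumors serve 2 of the 4 pairwise comparisons, as do the other groups, and the 12-tumor fits use all of them. The members and lists were chosen with earlier results of these data known. Named from each list were the gene with the largest mean TPM and those with the largest rise and fall over both antibodies. For Dcn, Rgs5 and Acta2 the 5 genes with the highest r were named. Adam12, Cd3d, Tcf21, Higd1b and the list genes called without DOX/IgG1 replicate 1 were named after values were seen. The results of 1 planned list are not reported here. Positions are from GENCODE vM21. The steps were tested on simulated data.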

Additional observations from a re-analysis of the deposited data

Results flagged for a closer look

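The test of whether the doxorubicin difference depends on the antibody singled out Bpifa2, with an interaction of -4.73 on the log2 scale (limma adjusted p = 0.0909 over all 14735 tested genes). It was listed at 14.4, 21.3 and 53.7 TPM in DOX/IgG1 tumors and at 0 in the 9 others, so the interaction is the DOX/IgG1 difference (4.73) with its sign turned, and its size depends on the pseudocount of 1. With the replicate block, with scaling by the median of ratios, with a pseudocount of 0.1 or with a mean of at least 1 TPM, 0 genes were called for the interaction. It is not a fibroblast or pericyte marker, and it was named after its values were seen.

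Adam12, a protease of the list of activated fibroblast genes, differed in opposite directions under the 2 antibodies. It reached 8.50, 8.37 and 7.58 TPM in IgG1 and 9.93, 12.0 and 11.9 TPM in DOX/IgG1 tumors, a log2 fold change of 0.42 with every doxorubicin tumor higher. With anti-PD-1 it reached 8.45, 10.6 and 12.8 TPM without and 5.16, 8.30 and 3.43 TPM with doxorubicin, a log2 fold change of -0.86 with every doxorubicin tumor lower. Of all tested genes, 9.31% had every doxorubicin tumor higher with the control antibody, and 3.84% had every one lower with anti-PD-1. The interaction for Adam12 was -1.28 (standard error 0.49, limma adjusted p = 0.993) and did not pass the limit.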

How the results depend on the processing

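Depth limits these results in an unknown way, because the tables hold no counts. Of 328 fold changes of the 10 markers under alternatives other than leaving out a tumor, 324 kept their direction and their side of the limits and 4 changed sign, all close to 0 and all under scaling by the median of ratios. They became -0.0716 for Rgs5 (DOX/IgG1 against IgG1), -0.0261 for Pdgfra and -0.0549 for Postn (DOX/anti-PD-1 against anti-PD-1), and 0.0072 for Dcn (anti-PD-1 against IgG1). Of 468 fold changes with 1 tumor left out, 419 kept both, 45 changed sign and 4 passed the limits, all 4 without DOX/IgG1 replicate 1. The cause was not tested.

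Numbers of called genes moved more. With the replicate block, where the replicate number is a term in the fit, 2 genes were called in place of 5 in DOX/IgG1 against IgG1, 1 in place of 3 over both antibodies, and 0 in place of 1 for the interaction. The number is only a label: deviations of tumors with the same number from their group means had r of 0.002 to 0.13, -0.056 to 0.135, -0.098 to -0.017 and -0.074 to 0.091 in the 4 pairwise comparisons. Scaling by the median of ratios gave 3 genes in place of 0 between the doxorubicin groups, 14 over both antibodies and 0 for the interaction. A fit of all 12 tumors gave 2 between the doxorubicin groups. For the interaction, a pseudocount of 0.1 gave 0, no minimum level gave 3 and a mean of at least 1 TPM gave 0. The cause was not tested.

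Leaving out 1 tumor gave 0 to 122 called genes in DOX/IgG1 against IgG1: 0 without any IgG1 tumor, and 122, 2 and 0 without DOX/IgG1 replicates 1, 2 and 3. Over both antibodies it gave 0 to 212: 4, 0 and 0 without IgG1 replicates 1, 2 and 3, 0, 4 and 5 without those of anti-PD-1, 212, 2 and 0 without those of DOX/IgG1, and 6, 27 and 1 without those of DOX/anti-PD-1. The other pairwise comparisons gave 0 to 4 each, and the interaction 0 to 1.

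For markers whose sign turned, the fold changes with 1 tumor left out ran as follows. In DOX/IgG1 against IgG1 they ran from -0.13 to 1.08 for Pdgfra, -0.47 to 0.11 for Pdgfrb, -0.21 to 0.84 for Fap, -0.19 to 0.66 for Thy1 and -0.18 to 0.36 for Rgs5. In DOX/anti-PD-1 against anti-PD-1 they ran from -0.13 to 0.23 for Pdgfra, -0.12 to 0.33 for Postn and -0.44 to 0.0057 for Rgs5. For anti-PD-1 against IgG1 they ran from -0.30 to 0.24 for Pdgfra, -0.35 to 0.18 for Fap, -0.22 to 0.17 for Dcn, -0.29 to 0.21 for Lum, -0.66 to 0.10 for Acta2 and -0.56 to 0.21 for Thy1. With DOX/IgG1 as the baseline of DOX/anti-PD-1 they ran from -1.08 to 0.13 for Pdgfra, -0.31 to 0.74 for Fap, -1.21 to 0.29 for Dcn, -0.87 to 0.46 for Lum, -0.84 to 0.65 for Acta2 and -0.23 to 0.30 for Rgs5. Over both antibodies they ran from -0.0042 to 0.53 for Pdgfra, -0.84 to 0.0175 for S100a4 and -0.17 to 0.067 for Rgs5. For the interaction they ran from -0.98 to 0.23 for Pdgfra, -0.22 to 0.84 for Fap, -1.18 to 0.32 for Dcn, -0.79 to 0.54 for Lum, -0.62 to 0.87 for Acta2 and -0.53 to 0.0104 for Rgs5.

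Of 30 correlations under other alternatives 25 kept their sign and side, and of 120 with 1 tumor left out 114 did. The r of Pdgfra and S100a4 became -0.012 with a pseudocount of 0.1 and -0.0458 with group means taken off, and ran from -0.571 to 0.229 with 1 tumor left out. The r of Pdgfrb and Rgs5 became -0.0534 with scaling by the median of ratios and ran from -0.0475 to 0.209, and that of Krt14 and Acta2 ran from -0.405 to 0.122. With 1 tumor left out, r ran from -0.5473 to -0.1265 for Rgs5 and Acta2 and from -0.4845 to -0.1157 for Postn and Fap. It ran from 0.0508 to 0.3784 for Cd3e and Thy1 and from -0.5196 to -0.1944 for Ptprc and S100a4. The cause was not tested.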
